A study of Mus musculus with 130 samples.

Results

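Nobox, Figla, Lhx8 and Sohlh1 are 4 transcription factor genes that work in the early ovarian oocyte, and their transcripts were followed here in single mouse 2-cell embryos. They were chosen by name, 4 of the 29981 gene names with at least 1 count, by summing the counts of all transcripts that carry each name. The embryos came from the B6129F1 strain and were isolated as zygotes 5 hours after fertilization. From 6 hours they were cultured in KSOM medium, without an oil overlay, with either 10 µM SR1848 or the solvent alone, 0.1% DMSO. The compound SR1848 is used against Nr5a2 (LRH-1), an orphan nuclear receptor, and the series asks what Nr5a2 does when the embryo's own genome is first switched on. Each of the 80 SR1848 embryos and 50 control embryos gave 1 Smart-seq2 library of polyadenylated RNA primed with oligo-dT. The design text gives 56 controls, but the series holds only the 50 analysed here.

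In the ovary, Sohlh1 and Lhx8 are needed when primordial follicles form and begin to grow, and Nobox acts beside them in the same oocytes. Nobox and Lhx8 carry homeodomains, Lhx8 together with LIM domains that recruit cofactors, while Figla and Sohlh1 are basic helix-loop-helix proteins that bind the short sequence called an E-box. Figla, paired with a ubiquitous helix-loop-helix partner, is known for switching on the zona pellucida genes Zp1, Zp2 and Zp3, which encode the glycoprotein coat around the egg. The oocyte stores transcripts in large amounts, and most of that store is degraded after fertilization as the embryo's genome takes over. A transcript of these genes found in a 2-cell embryo may therefore be a remainder of the oocyte's store, and steady-state counts do not separate stored from newly made RNA.

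Levels are given in CPM, the counts of a gene scaled to the size of its library. Total counts ran from 2730852 to 8438537 per embryo, with a median of 5476180 in controls and 4657122 with SR1848, and no embryo had an outlying low total. All 8 late 2-cell marker genes were present in both groups, with a median summed level of 158 CPM in controls and 1311 CPM with SR1848, and the part of this difference in the results was not tested. Of the 12 cumulus and granulosa cell markers, 8 had a median of 0 in each group, and 4 of 5 sperm markers and 4 of 5 blood markers likewise. The cumulus and granulosa markers summed to 0 to 40.5 CPM in controls and 1.54 to 284.5 CPM with SR1848, where Inha alone, at 0 in every control, reached 244.6 CPM in 1 embryo, and the sperm markers summed to at most 3.64 and 10.6 CPM. The remaining blood marker, the globin gene Hba-a1, had a mean of 13.5 CPM in controls and 86.8 CPM with SR1848, with 53 of 80 SR1848 embryos above every control. The part of these markers in the results was not tested. Nr5a2 itself stood at a mean of 96.4 CPM in controls and 10.6 CPM with SR1848 (edgeR's quasi-likelihood test, log2 fold change -3.18, SE 0.18, Benjamini-Hochberg adjusted p = 4.84e-36). In that test, over 13192 genes with enough counts, 47.2% were higher with SR1848 and 35.4% were lower at an adjusted p under 0.05, so a call by itself is common in these data. The labels do not say which embryos shared a mother, drop or plate, so the p-values reflect only how these embryos vary, and some of that variation may be technical.

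The DNA just before the transcription starts is where factors of this kind bind, and it differed between the genes in the number of E-boxes. The 250 bases before the start were taken from RefSeq on GRCm38.p6, which has an entry for each of the 4 factors and for Zp3. They are shown for Nobox and Lhx8, the pair of factors abundant enough for the main test. The stretch of Sohlh1, which held the most E-boxes of these genes, is shown too. So is that of Zp3, the zona gene whose E-box is the textbook example of Figla binding. Each is written 5′ to 3′ on the gene's own strand, and capitals mark E-boxes (CANNTG, which includes CACGTG), searched on both strands.
Nobox, chr6:43309555-43309804, minus strand: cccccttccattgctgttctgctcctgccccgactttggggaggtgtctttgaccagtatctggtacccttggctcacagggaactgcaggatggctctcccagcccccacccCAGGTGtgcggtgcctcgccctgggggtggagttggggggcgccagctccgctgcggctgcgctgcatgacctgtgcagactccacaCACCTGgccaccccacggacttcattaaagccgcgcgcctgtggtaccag
Lhx8, chr3:154330561-154330810, minus strand: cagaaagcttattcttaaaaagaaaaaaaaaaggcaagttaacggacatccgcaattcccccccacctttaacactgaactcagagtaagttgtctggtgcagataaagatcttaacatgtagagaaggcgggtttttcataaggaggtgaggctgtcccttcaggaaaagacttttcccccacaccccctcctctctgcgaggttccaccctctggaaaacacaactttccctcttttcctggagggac
Sohlh1, chr2:25847249-25847498, minus strand: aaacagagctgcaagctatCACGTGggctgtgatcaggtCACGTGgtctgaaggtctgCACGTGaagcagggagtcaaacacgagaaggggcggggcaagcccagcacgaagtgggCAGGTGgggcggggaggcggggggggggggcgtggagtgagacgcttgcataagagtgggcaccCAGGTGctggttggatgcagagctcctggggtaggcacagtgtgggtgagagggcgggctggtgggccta
Zp3, chr5:135979855-135980104, plus strand: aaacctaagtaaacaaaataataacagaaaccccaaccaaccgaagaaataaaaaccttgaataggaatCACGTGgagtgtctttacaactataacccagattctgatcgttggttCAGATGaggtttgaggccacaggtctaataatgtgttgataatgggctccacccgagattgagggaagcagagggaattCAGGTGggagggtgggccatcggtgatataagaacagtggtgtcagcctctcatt
Nobox held 2 E-boxes, Lhx8 held 0, Sohlh1 held 5 and Zp3 held 3. The same stretch of Figla, chr6:86016941-86017190 on the plus strand, held 2. At least 1 E-box was present in 66.2% of all 32851 stretches of this length. The palindrome CACGTG was rarer, at 6.02% of stretches. Sohlh1 carried it 3 times, and 0.0609% of all stretches held 3 or more. Zp3 carried it once, with its first base 181 bases before the start. A general homeodomain motif, TAATTA, was found in 4.84% of stretches, the Nobox motif TAATTG in 7.17% on either strand, and the Lhx8 motif TGATTG in 12.7%. None of these 3 motifs was in any of the 5 stretches. RefSeq and GENCODE place some starts differently, and the last 99 bases shown for Lhx8, the last 6 for Zp3 and all 250 for Figla lie inside the genes as GENCODE draws them. These matches are a description of the letters in a short window and do not show binding.

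Nobox transcripts were 3.05-fold higher in SR1848 embryos. Nobox (ENSMUSG00000029736, mm10 chr6:43303674-43309554, minus strand) ran from 10.1 to 90.2 CPM in the controls, with a median of 33.1. With SR1848 it ran from 26.1 to 266 CPM, with a median of 94.4. The groups overlapped at their edges: 43 of the 80 SR1848 embryos lay above every control, 10 of the 50 controls lay below every SR1848 embryo, and all 50 controls lay below the SR1848 median. The means were 35.4 ± 14.6 CPM (SD, n = 50) and 108 ± 56.4 CPM (SD, n = 80), a log2 fold change of 1.61 (SE 0.14, edgeR's quasi-likelihood test, adjusted p = 9.48e-22).

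Lhx8, the LIM-homeodomain factor, was 3.4-fold higher with SR1848. Lhx8 (ENSMUSG00000096225, mm10 chr3:154306294-154330659, minus strand) lay between 3.48 and 78.7 CPM in controls, with a median of 23.5 CPM. With SR1848 it lay between 20.4 and 262 CPM, with a median of 87.8 CPM. Here 50 of 80 SR1848 embryos exceeded every control and 16 of 50 controls fell below every SR1848 embryo. The means were 27.3 ± 13.7 CPM (SD, n = 50) and 92.8 ± 48 CPM (SD, n = 80), a log2 fold change of 1.77 (SE 0.14, edgeR's quasi-likelihood test, adjusted p = 5.98e-24). Of all genes tested, 11.9% had a log2 fold change at least as large as that of Nobox and 8.77% one at least as large as that of Lhx8. The spread relative to the mean stayed wide in both groups: the coefficient of variation was 41.3% and 52.3% for Nobox and 50.4% and 51.8% for Lhx8, controls first.

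Figla was scarce, and more SR1848 embryos than controls had any count of it. Figla (ENSMUSG00000030001, mm10 chr6:86016171-86020996, plus strand) did not have enough counts for the filter that precedes the main test, and neither did Sohlh1, so 2 of the 4 factors passed it. At least 1 count of Figla was present in 18 of 50 control embryos (36%, exact 95% interval 22.9% to 50.8%) and in 60 of 80 SR1848 embryos (75%, 64.1% to 84%; Fisher's exact test, two-sided, p = 1.73e-05, adjusted over 2 genes 3.46e-05). These intervals cover counting error only. In controls the level ran from 0 to 4.96 CPM with a median of 0, and with SR1848 from 0 to 6.08 CPM with a median of 0.921. The groups overlapped over nearly the whole range, and 4 SR1848 embryos lay above the highest control. Fitted without the filter, over 29981 genes of which 37.2% were called higher, Figla had a log2 fold change of 2.34 (SE 0.45, edgeR's quasi-likelihood test, adjusted p = 2.88e-06), from means of 0.276 ± 0.749 CPM (SD, n = 50) and 1.5 ± 1.59 CPM (SD, n = 80). In the embryos numbered above 40 alone the call was lost (log2 fold change 1.59, edgeR's adjusted p = 0.0994).

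Sohlh1, the helix-loop-helix factor of the youngest oocytes, was as scarce, and its difference between the groups did not hold up. Sohlh1 (ENSMUSG00000059625, mm10 chr2:25842995-25847248, minus strand) ran from 0 to 8.36 CPM in controls, with a median of 0.257, and from 0 to 12.4 CPM with SR1848, with a median of 0.941, with 24 of 50 controls and 30 of 80 SR1848 embryos at 0. The share of embryos with a count was 52% (26 of 50, exact 95% interval 37.4% to 66.3%) and 62.5% (50 of 80, 51% to 73.1%), a difference that missed the threshold (Fisher's exact test, two-sided, p = 0.274, adjusted over 2 genes 0.274). The means were 0.988 ± 1.61 CPM (SD, n = 50) and 2.06 ± 2.85 CPM (SD, n = 80). Without the filter the log2 fold change was 1.03 (SE 0.47, edgeR's quasi-likelihood test, adjusted p = 0.0484), just inside the threshold. Under 9 of 12 other settings this call was lost, among them total-count scaling, where the log2 fold change was 0.81 (edgeR's adjusted p = 0.131). The authors' deposited table gives its single transcript a log2 fold change of 0.71 with an adjusted p of 0.237. The median log2 fold change of the 4 factors without the filter was 1.69, beside 0.29 for all genes fitted that way.

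**Figure D1:**
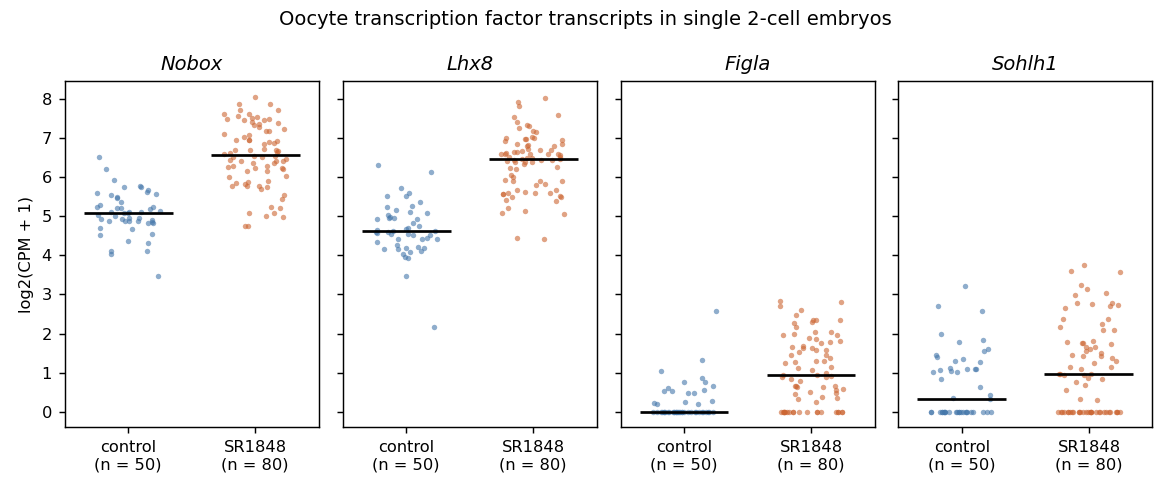
Each point is 1 embryo, with log2(CPM + 1) on the vertical axis and the control (n = 50) and SR1848 (n = 80) groups on the horizontal axis; black bars are medians. Nobox and Lhx8 are shifted upward with SR1848 with some overlap, while Figla and Sohlh1 lie near 0, with 32 and 24 controls and 20 and 30 SR1848 embryos at exactly 0.

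Levels can be set side by side between genes only after dividing by transcript length. On the scale of CPM per kilobase of transcript, the controls held 20.1 ± 11.3 for Lhx8, 19.2 ± 7.8 for Nobox, 0.766 ± 1.25 for Sohlh1 and 0.383 ± 0.988 for Figla (SD, n = 50). The spreads of Lhx8 and Nobox thus overlapped, as did those of Sohlh1 and Figla, and the means of the first pair stood far above the second. Differences between genes were not tested. The zona transcripts had higher means still, with Zp3 at 63.3 ± 18, Zp2 at 38.4 ± 13.7 and Zp1 at 31.4 ± 13.7 CPM per kilobase (SD, n = 50). The spreads of Zp2 and Zp1 overlapped those of Lhx8 and Nobox. In SR1848 embryos Lhx8 (68.3 ± 36.3) and Nobox (59.3 ± 30.8) reached the level of Zp3 (61.6 ± 24.2) and Zp1 (51.4 ± 18.1), all in CPM per kilobase (SD, n = 80), and Zp2 was the most abundant at 92 ± 37.5. Figla stood at 2.08 ± 2.14 and Sohlh1 at 1.6 ± 2.21 CPM per kilobase (SD, n = 80).

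The rise of Nobox and Lhx8 was seen in their main coding transcripts. The coding transcript Nobox-201 held 97.0% of Nobox counts in controls and 95.8% with SR1848, and its own log2 fold change was 1.47 (SE 0.14, edgeR's quasi-likelihood test over 25731 transcripts of which 38.5% were called higher, adjusted p = 7.14e-19). The short noncoding Nobox-203 rose too, by a log2 fold change of 2.06 (SE 0.41, edgeR, adjusted p = 3.56e-06), but held 1.33% and 2.06% of the counts. Lhx8 counts were spread over more forms: Lhx8-205 held 47.7% and 54%, Lhx8-201 held 24.1% and 18.7%, Lhx8-204 held 16.4% and 16.8%, and Lhx8-203, annotated as a target of nonsense-mediated decay, held 11.9% and 10.4%, controls first. All 4 of these forms passed the threshold, with log2 fold changes of 1.81 for Lhx8-205, 1.29 for Lhx8-201, 1.65 for Lhx8-204 and 1.51 for Lhx8-203 (edgeR, largest adjusted p = 4.28e-05). The counts are kallisto estimates, which share out reads common to several forms, so the split between the Lhx8 forms is less certain than their sum. In the authors' deposited table, Nobox-201 had a log2 fold change of 1.2, Lhx8-205 one of 1.56 and Figla-201 one of 2.09, with adjusted p-values of 1.66e-21, 1.52e-26 and 1.25e-05.

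How large these differences are depends on what the libraries are measured against, because CPM is a share of each library. A list of 30 oocyte-stored transcripts, with no factor and no zona gene among them, had a median log2 fold change of 0.94, with 28 of 30 higher, 0 lower and 2 not called, where 47.2% of all genes were higher in the same edgeR test. Its summed level ran from 8160 to 31721 CPM in controls, with a median of 17403, and from 17668 to 86645 CPM with SR1848, with a median of 41571. A few abundant transcripts carry much of this sum. Its mean was 17901 CPM in controls and 43952 CPM with SR1848, of which Spin1 held 4493 and 11795 and Zbed3 2808 and 13062. Scaling to the sum, or holding it fixed, therefore weighs these transcripts most. When the libraries were scaled to that sum, the median of all tested genes moved from 0.30 to -0.97 on the log2 scale and 10.2% of genes were higher with SR1848. Nobox then kept a log2 fold change of 0.25 (edgeR, adjusted p = 0.018), Lhx8 one of 0.47 (adjusted p = 0.000213) and Figla one of 1.06 (adjusted p = 0.0429), while Sohlh1 stood at -0.06 (adjusted p = 0.931). Giving each of the 30 transcripts equal weight, a scaling added after seeing the data, put the median of all genes at -0.57 with 20.4% called higher. It left Nobox at 0.62, Lhx8 at 0.89 and Figla at 1.54 (edgeR, adjusted p = 2.02e-09, 6.42e-10 and 0.00238), and Sohlh1 at 0.32 (adjusted p = 0.589). Measured against this store of oocyte transcripts, Nobox and Lhx8 were thus still higher with SR1848, by less than in CPM. They did not lie outside the spread of the store itself. On the scale of its sum, 4 of the 30 stored transcripts were higher and 19 lower, where 10.2% of all genes were higher and 65% lower. Zbed3 at 0.98 and Cpeb1 at 0.71 lay above both factors there, as they did with equal weights (1.47 and 1.17).

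The zona genes did not follow 1 course. Zp2 rose from 84.1 ± 31.1 to 200 ± 79.7 CPM (edgeR, adjusted p = 2.14e-20, for a log2 fold change of 1.25 with SE 0.11) and Zp1 from 61.2 ± 26.9 to 100 ± 35.6 CPM (edgeR, adjusted p = 1.39e-10, for a log2 fold change of 0.71 with SE 0.10; SD, n = 50 and 80). Zp3 stood at 82.3 ± 23.2 and 79.9 ± 31.5 CPM (edgeR, adjusted p = 0.689, for a log2 fold change of -0.04 with SE 0.10), and the authors' deposited table gives its main transcript -0.42 with an adjusted p of 0.000124. Scaled to the sum of stored transcripts, Zp1 turned to -0.55, Zp2 to -0.01 and Zp3 to -1.23. Within the summed zona level, the share held by Zp2 was 36.6% ± 10.3 in controls and 51.4% ± 11.8 with SR1848, and that of Zp3 36.7% ± 9.37 and 21.7% ± 8.72 (SD, n = 50 and 80).

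**Figure D2:**
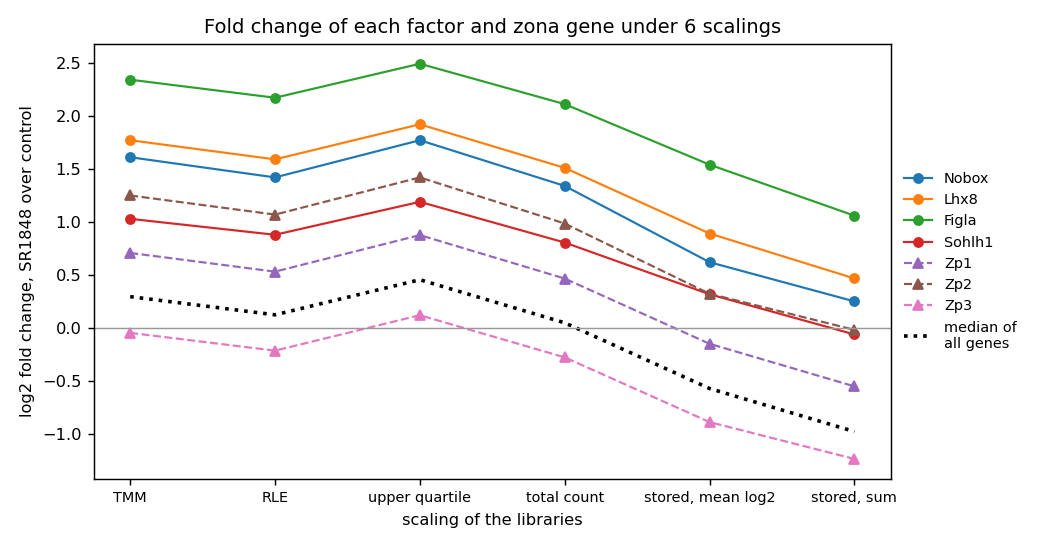
The vertical axis is the log2 fold change of SR1848 over control and the horizontal axis names 6 ways of scaling the libraries; circles are the factors, triangles the zona genes, and the dotted line is the median of all tested genes. Nobox, Lhx8 and Figla stay above 0 under all 6, Sohlh1 ends at -0.06 under the stored sum, and Zp3 lies below the median of all genes throughout.

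The next question was whether an embryo with more of a factor also held more zona transcript. In controls no relation of the 4 passed the test: Spearman's rho with the summed zona level was 0.00936 for Nobox, 0.126 for Lhx8, 0.0892 for Figla and -0.058 for Sohlh1, and Pearson's r of log2(CPM + 1) was 0.113, 0.161, 0.154 and -0.014 (n = 50, permutation tests with 100000 resamples, adjusted over 8 relations, smallest adjusted p = 0.829 for rho and 0.57 for r). With SR1848, Nobox was correlated with the zona sum, at a rho of 0.46 (permutation test, p = 7e-05, adjusted p = 0.00056) and an r of 0.53 (p = 1e-05, the smallest that 100000 permutations give, adjusted p = 8e-05; n = 80). Leaving out the 2 embryos farthest from the median left a rho of 0.44 and an r of 0.517. The other factors had rho values of -0.0398 for Lhx8, -0.0815 for Figla and -0.0916 for Sohlh1 and r values of -0.00507, -0.105 and -0.115 in SR1848 embryos (adjusted permutation p = 0.829 for each rho, n = 80). The rho of Nobox was larger with SR1848 than in controls by 0.451 (permutation of the group labels, p = 0.0095, adjusted over 4 factors 0.038). That difference missed the threshold with total-count scaling (0.407, adjusted permutation p = 0.0832), with Pearson's r (0.417, adjusted permutation p = 0.0627) and without the 2 farthest embryos (0.348, adjusted permutation p = 0.205), and with scaling to the stored sum it was 0.132.

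Taken 1 zona gene at a time, a look added after seeing the data, the relation of Nobox lay with Zp2. In SR1848 embryos Nobox and Zp2 had a rho of 0.693 and an r of 0.716 (permutation test, n = 80, adjusted over 24 relations p = 0.00024), and 0.887% of all tested genes had a rho with Zp2 at least as high. In controls the same pair had a rho of 0.244 and an r of 0.332 (adjusted permutation p = 0.237, n = 50), and the difference of 0.449 passed the test (permutation of the group labels, p = 0.0012, adjusted over 12 differences 0.0144). With Zp1 the rho of Nobox was 0.0255 in SR1848 embryos, and with Zp3 it was -0.321 (adjusted permutation p = 0.0306, r -0.302, n = 80). Lhx8 was also negatively related to Zp3 there, with a rho of -0.37 and an r of -0.389 (adjusted permutation p = 0.0118, n = 80), while its rho of 0.371 with Zp2 in controls just missed the threshold (r 0.426, adjusted permutation p = 0.0515, n = 50). Figla, whose protein acts on all 3 zona promoters in the oocyte, had no relation past the threshold with any of them in either group, the highest rho being 0.318 with Zp1 in controls (r 0.391, adjusted permutation p = 0.116, n = 50). With a median of 0 counts in controls and 4 counts with SR1848, the rank order of embryos for Figla rests on few reads. No pair of zona genes passed the threshold either, with rho values from -0.0633 to 0.206 over 6 relations (smallest adjusted permutation p = 0.448).

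**Figure D3:**
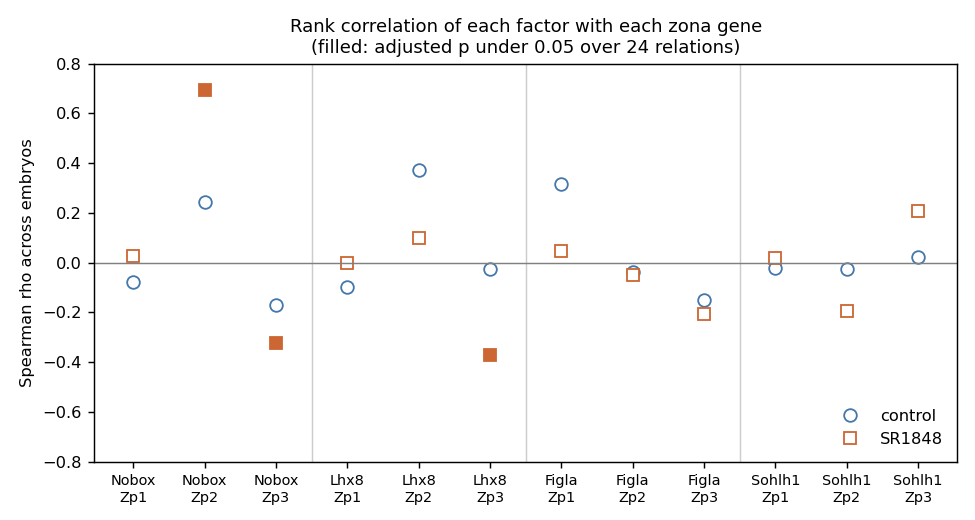
The vertical axis is Spearman's rho across embryos and the horizontal axis lists each factor with each zona gene; circles are controls (n = 50) and squares SR1848 embryos (n = 80), filled where the permutation p adjusted over 24 relations is under 0.05. Only 3 symbols are filled, all in SR1848 embryos: Nobox with Zp2 at 0.693, Nobox with Zp3 at -0.321 and Lhx8 with Zp3 at -0.37.

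The stored oocyte transcripts moved with several of these relations. Across SR1848 embryos their sum had a rho of 0.756 with Nobox, 0.498 with Lhx8, 0.491 with Zp2 and -0.489 with Zp3, and across controls 0.462 with Nobox, 0.326 with Lhx8, 0.493 with Zp2 and 0.0554 with Zp3. With that sum held fixed, the SR1848 rho of Nobox with Zp2 was 0.563, that of Nobox with Zp3 was 0.0844 and that of Lhx8 with Zp3 was -0.168 (partial rank correlations, given as a description). Scaled to the stored sum, the rho of Nobox with the zona total was 0.152 (adjusted permutation p = 0.632, n = 80), while with that sum held fixed it was 0.421 (partial rank correlation, adjusted permutation p = 0.00096, n = 80). The total count had a rho of 0.138 with Nobox in SR1848 embryos and -0.177 in controls, and Nr5a2 itself one of -0.0951 and 0.00485. The part of the stored transcripts in the relation of Nobox to Zp2 was tested no further than by these values.

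Among the factors, Nobox and Lhx8 were correlated in both groups. Their rho was 0.487 and their r 0.591 in controls (permutation test, n = 50, adjusted over 12 pairs p = 0.00396), and 0.35 and 0.391 with SR1848 (n = 80, adjusted permutation p = 0.00912). With the stored sum held fixed the rho was 0.402 in controls and -0.048 with SR1848. No other pair of the 4 passed the threshold, with rho values from -0.248 for Nobox and Sohlh1 to 0.179 for Figla and Sohlh1, both in SR1848 embryos.

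**Figure D4:**
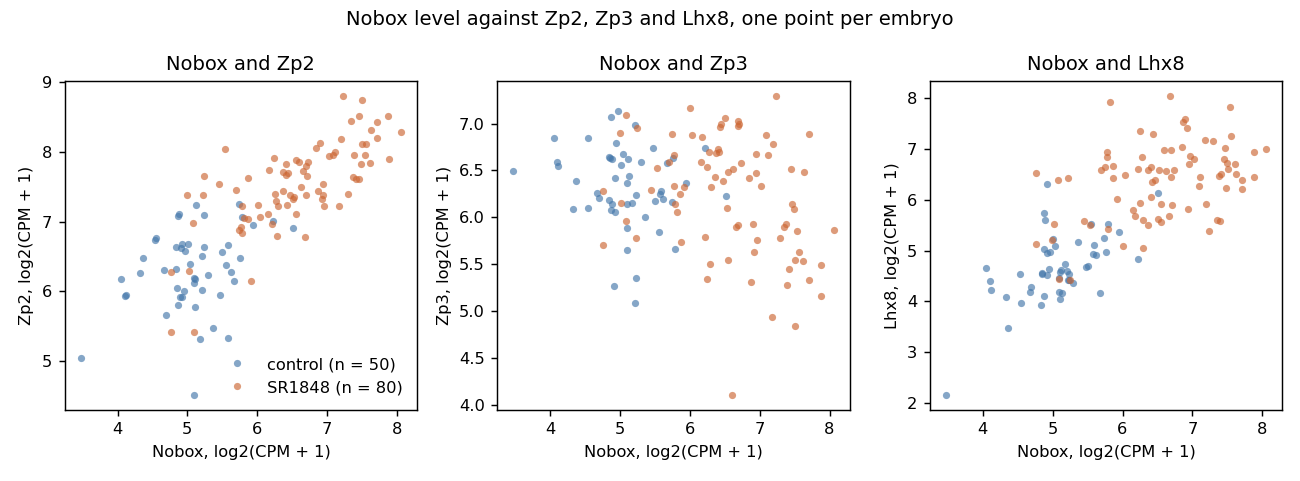
Each point is 1 embryo, with the log2(CPM + 1) of Nobox on the horizontal axis and that of Zp2, Zp3 or Lhx8 on the vertical axis; colours give the group (control n = 50, SR1848 n = 80). Within SR1848 embryos Zp2 rises with Nobox (rho 0.693) and Zp3 declines (rho -0.321), and Nobox and Lhx8 rise together in each group (rho 0.35 with SR1848, 0.487 in controls).

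The genes for proteins that act with these factors were mostly higher with SR1848. Of 13 partners and inhibitors, 12 were tested, 9 were higher, 1 was lower and 2 did not pass, with a median log2 fold change of 0.97 beside 0.30 for all genes, of which 47.2% were higher and 35.4% lower. Scaled to the stored sum, 4 were higher and 6 lower (median -0.30), where 10.2% of all genes were higher and 65% lower. Tcf3, which encodes the E-protein partner of Figla, rose from 13.2 ± 6.19 to 35 ± 19.9 CPM (edgeR, adjusted p = 6.74e-18, for a log2 fold change of 1.41 with SE 0.14). The Id genes encode proteins that tie up such partners without binding DNA, and all 4 were higher, also when scaled to the stored sum, with log2 fold changes from 1.13 to 2.22 there. Id2 rose from 31.2 ± 36 to 316 ± 211 CPM (edgeR, adjusted p = 1.06e-27, for a log2 fold change of 3.34 with SE 0.23), Id1 from 21.4 ± 15.9 to 144 ± 103 CPM (log2 fold change 2.75) and Id3 from 13.1 ± 11.5 to 65.4 ± 52.9 CPM (log2 fold change 2.31; SD, n = 50 and 80 throughout).

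Relatives of Lhx8 were scarce in controls, and those that passed the filter were mostly higher with SR1848. Of 7 other LIM-homeodomain genes, 5 passed the filter and were tested. Of these, 4 were higher and 1 was lower (median log2 fold change 2.46), where 47.2% of all genes were higher and 35.4% lower. Scaled to the stored sum, 3 were higher and 1 lower, where 10.2% of all genes were higher and 65% lower, and Isl1 stood at -0.09. Lhx6, Lhx5 and Lhx1, with control medians of 0, 0.058 and 1.61 CPM, passed the filter through their counts with SR1848. Isl1 was scarce in both groups, with medians of 0.398 and 1.7 CPM, controls first. Lhx2 (means of 1.14 and 1.37 CPM, controls first) and Lhx9 (0.414 and 0.267 CPM) did not pass the filter. These counts and this median are therefore no result about the family. Lhx6, the closest relative, stood at 1.09 ± 1.67 CPM in controls and 50.9 ± 32.5 CPM with SR1848 (log2 fold change 5.51). Lhx5 stood at 0.514 ± 1.02 and 10.4 ± 15 CPM (log2 fold change 4.28) and Lhx1 at 2.71 ± 3.27 and 15.1 ± 13.1 CPM (log2 fold change 2.46). The filter let Lhx6, Lhx5 and Lhx1 in through the SR1848 embryos, so their differences are a description and not a test. Lmx1a fell from 5.58 ± 4.18 to 2.36 ± 2.06 CPM (log2 fold change -1.23; SD, n = 50 and 80 throughout). Reads shared by near-identical stretches are split by estimate, and sharing between Lhx8 and Lhx6 was not tested.

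Other genes of the oocyte factor network were split between both directions. Of 18 listed, 17 were measured and tested, 10 were higher, 5 were lower and 2 did not pass, with a median log2 fold change of 0.79 beside 0.30 for all genes. With 47.2% of all genes higher and 35.4% lower, this split lies near the background and is no result about the network. Scaled to the stored sum, 2 were higher and 10 lower (median -0.51), where 10.2% of all genes were higher and 65% lower with a median of -0.97. Dazl, an RNA-binding protein of germ cells, rose from 49.7 ± 26 to 163 ± 78.3 CPM (log2 fold change 1.72), Ybx2, which packages stored messages, from 19.8 ± 9.61 to 58.3 ± 24.5 CPM (1.56 on the log2 scale) and Foxo3, which holds primordial follicles at rest, from 96.9 ± 26.8 to 219 ± 84.4 CPM (1.18 on the log2 scale). The most abundant, the oocyte homeobox gene Obox5, rose from 295 ± 190 to 540 ± 386 CPM (log2 fold change 0.87, edgeR, adjusted p = 4.38e-06). In the other direction, Tbp, the general TATA-binding protein, fell from 236 ± 48.1 to 27.1 ± 13 CPM (edgeR, adjusted p = 9.09e-56, for a log2 fold change of -3.13 with SE 0.11; SD, n = 50 and 80).

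Of 22 genes reported as bound by or dependent on the 4 factors in oocytes, 18 were higher with SR1848, 3 were lower and 1 did not pass, with a median log2 fold change of 0.86, where 47.2% of all genes were higher and 35.4% lower with a median of 0.30. Pou5f1, a pluripotency factor, rose from 23.5 ± 10.9 to 63.4 ± 25.7 CPM (1.43 in log2, SE 0.12), the oocyte histone chaperone Npm2 from 63.9 ± 23.3 to 170 ± 104 CPM (1.41, SE 0.14), the growth factor Gdf9 from 144 ± 46.5 to 288 ± 88.9 CPM (0.997, SE 0.09) and Nlrp5, a component of the subcortical maternal complex, from 243 ± 67.4 to 447 ± 132 CPM (0.88, SE 0.08). The most abundant, Dppa3, which protects the maternal genome from demethylation, fell from 2701 ± 719 to 1274 ± 620 CPM (edgeR, adjusted p = 8.22e-17, for a log2 fold change of -1.08 with SE 0.11; SD, n = 50 and 80). Of the 22 genes, 14 are also among the 30 stored transcripts, and of the 8 that are not, 5 were higher and 3 lower. Fgf8, one of these 5, had a control median of 0.606 CPM. It passed the filter through its counts with SR1848 (median 4.46 CPM), so its call is no result, here or among the 18. Scaled to the stored sum, 1 of the 22 was higher and 15 were lower, where 10.2% of all genes were higher and 65% lower. With each stored transcript weighted equally 5 were higher and 7 lower, where 20.4% of all genes were higher and 53.7% lower. Against the stored sum both shares of the 22 lie near the background and are no result about the targets.

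**Figure D5:**
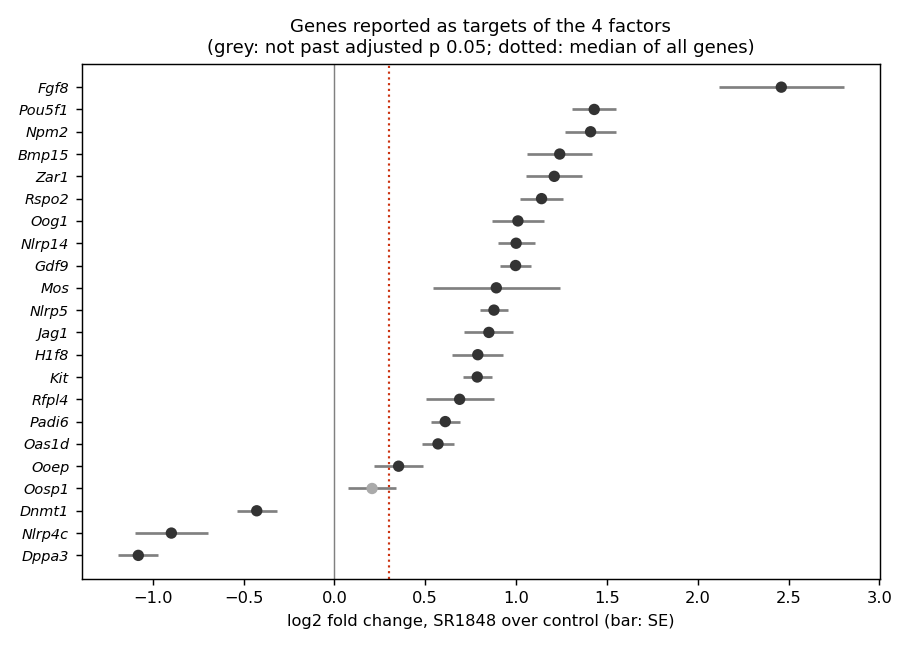
Each row is 1 of the 22 reported target genes, with its log2 fold change of SR1848 over control on the horizontal axis and the standard error as a bar; grey marks the gene that did not pass, and the dotted line is the median of all tested genes at 0.30. Fgf8 lies farthest to the right at 2.46, from a control median of 0.606 CPM, and passed the filter through its counts with SR1848. Pou5f1 and Npm2 follow at 1.43 and 1.41, and Dppa3 lies farthest to the left at -1.08.

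The genes most like each factor were ranked by Spearman's rho across the embryos of 1 group, over 9889 genes with a mean of at least 5 CPM. Genes with Gm or Rik names and unnamed genes were left out of this ranking. For Nobox in SR1848 embryos these were Oas1c (0.877), Trim60 (0.859), Wee2 (0.859), Spin1 (0.855) and G6pdx (0.851), which in controls had rho values from 0.415 to 0.513. In controls the list was Dync1i2 (0.66), Bach2 (0.645), Nlrp9a (0.602), Ap3m1 (0.599) and Pla2g4c (0.594), and with SR1848 these 5 had rho values of 0.692 to 0.796. Lhx8 in SR1848 embryos was most like Reep2 (0.688), Rbpms2 (0.686), Rab14 (0.683), Mindy1 (0.679) and Hibadh (0.676), and in controls most like Med15 (0.612), Odf2 (0.588), Bcl2l1 (0.571), Rela (0.566) and Rab3d (0.56). The median rho over all ranked genes lay between -0.0181 and 0.0271 for both factors. Spin1, which encodes a histone reader bound to the meiotic spindle, is one of the 30 stored transcripts and weighs heavily in their sum. For Figla and Sohlh1 such a ranking rests on few counts, and weak values are no finding; the highest were 0.613 with Add2 in SR1848 embryos for Figla and 0.556 with H2bc22 in controls for Sohlh1.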

How the data were processed

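RNA was measured in 130 single 2-cell embryos, grouped by their titles, where controls are marked NT; the DMSO and SR1848 treatments are per the labels. The submitters' processing notes name kallisto 0.46.1 and Trim Galore 0.6.2, with bcl2fastq, DESeq2 1.32.0 under R 3.5.1, and 2 genome builds, mm10 and hg19, whose roles are not stated. The authors deposited kallisto estimated counts per transcript, 28.1% of them not whole. The deposited log2 table equals the counts scaled by their total (largest deviation 5.3e-14) and served no other purpose. The authors' DESeq2 table gives log2 fold changes and p-values per transcript, with the mean scaled signal over embryos; the deposited test score was not used.

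Counts were summed per gene name (the authors' table, else GENCODE M21) and rounded; transcripts with no gene name held 0.837% of counts and stayed out. Coordinates of genes are those of GENCODE M21 on mm10. Genes kept by filterByExpr were tested with edgeR 4.0.16 in R 4.3.3 (TMM, robust glmQLFit, glmQLFTest, two-sided, Benjamini-Hochberg over 13192 genes, threshold 0.05). Figla and Sohlh1 did not pass that filter and were read from the same fit without it. Changes in log2 are SR1848 over control, and CPM use TMM-scaled library sizes. Correlations and their group differences used permutation tests of 100000 resamples (scipy 1.17.1, numpy 2.4.6) with a pseudocount of 1 on the log2 scale. No pair of libraries in a group agreed within sampling noise (lowest chi-square per gene 19). Without molecular identifiers, a count is a read and not a separate molecule.

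Genes named from a list are its most abundant one and the 4 of smallest p. The factors and the lists were chosen with earlier results of these data known. Alternatives were other scalings, filters and tools (DESeq2 1.42.0, limma-voom 3.58.1), covariates, subsets by embryo number, the embryo number as a block, single transcripts and other zona measures.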

Additional observations from a re-analysis of the deposited data

Results flagged for a closer look

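The relation of Nobox to the summed zona level differed between the groups under the scaling used throughout, and not under every other setting tried. Across embryos the rho of Nobox with the summed zona level was higher by 0.451 with SR1848 than in controls (0.46, n = 80, against 0.00936, n = 50; permutation of the group labels, p = 0.0095, adjusted over 4 factors 0.038). That difference missed the threshold with total counts (0.407, adjusted permutation p = 0.0832), with Pearson's r (0.417, adjusted permutation p = 0.0627), without the 2 embryos farthest from the median (0.348, adjusted permutation p = 0.205) and with the stored sum (0.132, adjusted permutation p = 0.877). With Zp3 alone it was -0.153 (adjusted permutation p = 0.464). With Zp2 alone the rho was higher by 0.449 (0.693 against 0.244; permutation of the group labels, p = 0.0012, adjusted over 12 differences 0.0144), a comparison added after seeing the data. The stored oocyte transcripts moved with Nobox and with Zp2 in both groups, and with their sum held fixed the Nobox and Zp2 rho was 0.563 with SR1848 and 0.021 in controls. With the late 2-cell marker sum held fixed it was 0.688 and 0.23. Shared mothers, drops or plates are not given in the labels, and their part in this difference was not tested.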

How the results depend on the processing

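Nobox and Lhx8 kept their direction and their call under all 15 alternatives, with log2 fold changes from 0.25 to 1.77 and from 0.47 to 1.92. Figla did so under 11 of 12 (1.06 to 2.97) and lost its call in embryos numbered above 40 (1.59). With the embryo number as a replicate block, Nobox stood at 1.51, Lhx8 at 1.66, Figla at 2.97, Sohlh1 at 1.26 (call lost) and Zp3 at 0.0338 (sign turned). Of the 50 shared numbers, 3 pairs correlated above 0.1 (median 0.025) and 0 controls matched best with their own number. Embryos of the same number were thus not alike in expression. The labels do not say how the numbers were given, and this check cannot show whether they pair embryos by handling. Sohlh1 lost its call with RLE factors (0.88), total counts (0.81), DESeq2 (0.90), total count as a covariate (0.96), numbers up to 40 (0.81) or above 40 (1.96) and the equal-weight stored scaling (0.32), and turned to -0.0583 with the stored sum. Zp3 turned to 0.12 with upper-quartile factors and passed the threshold with total counts (-0.27) and DESeq2 (-0.21). With the stored sum and the equal-weight stored scaling, Zp3 passed at -1.23 and -0.88 and Zp1 turned to -0.55 and -0.15, and with the sum Zp2 turned to -0.0147. Genes called higher and lower, 6229 and 4672, became 1340 and 8581 with the stored sum, 2689 and 7089 with equal weights and 11155 and 7009 without the filter, where more genes were tested. Of the 55 tested genes on the 4 lists of network, partner, related and target genes, 40 were higher and 10 lower, against 10 and 31 with the stored sum and 19 and 20 with equal weights. These counts include Lhx6, Lhx5, Lhx1 and Fgf8, which passed the filter through their counts with SR1848. Over all genes the shares were 47.2% higher and 35.4% lower, 10.2% and 65% with the stored sum, and 20.4% and 53.7% with equal weights. The stored transcripts used for scaling include 14 of the 22 targets and 2 of the 17 network genes. The rho of Nobox with the zona level in SR1848 embryos, 0.46, lost its call at 0.152 with the stored sum, 0.231 with the mean log2 of the zona genes and 0.0255 with Zp1 alone, and turned to -0.321 with Zp3 alone. The other relations with the zona sum did not pass, and these changed sign. With Zp3 alone, in controls, Nobox had -0.168, Figla -0.151, Lhx8 -0.0243 and Sohlh1 0.0214, and with SR1848 Sohlh1 had 0.206, while Lhx8 passed at -0.37. With Zp2 alone Figla had -0.0371 in controls, and Lhx8 0.101 with SR1848 and, past the threshold over 8 relations, 0.371 in controls. With Zp1 alone Nobox had -0.0775 and Lhx8 -0.0965 in controls, and with SR1848 Figla had 0.0489, Lhx8 0.000774 and Sohlh1 0.021. In numbers above 40 Figla had -0.285 and Lhx8 -0.0786 in controls and Lhx8 0.0831 with SR1848, and in numbers up to 40 Figla had 0.0129 with SR1848. Sohlh1 had 0.165 in controls and 0.21 with SR1848 with the stored sum, 0.00138 with SR1848 with the mean log2 of the zona genes, and 0.00171 in controls given the stored transcripts. Nobox in controls had -0.0146 with that mean and -0.202 given the stored transcripts, and Lhx8 with SR1848 had 0.0257 with total counts and 0.0123 without the 2 farthest embryos. The group difference for Nobox, 0.451, lost its call with total counts (0.407), the stored sum (0.132), Pearson's r (0.417) and without the 2 farthest embryos (0.348), and turned to -0.153 with Zp3 alone; that for Sohlh1 turned to 0.0449 with the stored sum, 0.185 with Zp3 alone and 0.0678 without the 2 farthest embryos. The cause of these changes was not tested. No embryo had a total below the limit of 3 median absolute deviations, so the alternative without such embryos gave no value, and the most abundant transcripts of Figla and Sohlh1 could not be fitted one by one after the filter. Figla and Sohlh1 had median counts of 0 and 2 in controls, which limits what their relations can show at this depth.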

Other observations

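Figla had its closest match in the gene that lies next to it. In SR1848 embryos the rho of Figla with Add2, which encodes the cytoskeletal protein beta-adducin, was 0.613, and the next highest of 9890 ranked genes was Kremen1 at 0.429. In controls the rho with Add2 was 0.324. Add2 (mm10 chr6:86028681-86124409, plus strand) starts 7684 bases after the end of Figla on the same strand, and the annotated genes do not overlap. Add2 stood at 6.84 ± 4.13 CPM in controls (SD, n = 50) and 17.8 ± 10.7 CPM with SR1848 (SD, n = 80), a log2 fold change of 1.38 (SE 0.21, edgeR, adjusted p = 2.4e-09). For the nearest measured neighbours of the other factors, the rho of Nobox with Arhgef5, 14353 bases away, was -0.0994 with SR1848, that of Lhx8 with Slc44a5, 34571 bases away, was -0.0505, and that of Sohlh1 with Kcnt1, 16485 bases away, was 0.108 at a mean of 0.0116 CPM. The Figla and Add2 pair was singled out after its values were seen, and its rho is given as a description of sparse counts.

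The factors were also set against the late 2-cell markers, a look added after seeing the data and given as a description. Across SR1848 embryos the summed level of the 8 markers had a rho of -0.559 with Lhx8, -0.167 with Nobox, -0.136 with Figla and 0.214 with Sohlh1 (n = 80). The stored transcripts had a rho of -0.426 with those markers and Zp3 one of 0.448. Across controls the same values were -0.194 for Lhx8, 0.112 for Nobox, 0.0431 for Figla and 0.0374 for Sohlh1 (n = 50). With the markers held fixed, the rho of Lhx8 with Zp3 in SR1848 embryos was -0.162, where it was -0.37 without.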
